A study of Mus musculus with 8 samples.

Results

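The 36 genes described here are glycolysis enzymes and targets of the hypoxia-inducible factors (HIFs), taken by symbol from the 45777 genes of the count tables. The rule lists them by function and uses no measured value. They comprise 3 glucose and lactate carriers, 17 glycolysis enzymes, 3 regulators of glycolytic flux, the factor gene Hif1a and 12 HIF targets outside glycolysis. RNA was sequenced from 8 mouse organoid libraries, 3-dimensional cultures labelled as wild type (WT) and as hepatocellular carcinoma linked to metabolic steatohepatitis (MASH). Untreated parental cultures gave 1 library from each of 4 lines (SNU-6621, SNU-6622, SNU-6624, SNU-6625). Of these, SNU-6624 and also SNU-6625 gave 1 library each after lenvatinib, a multikinase inhibitor of receptors that include those for VEGF and FGF, and 1 library each from a lenvatinib-resistant culture. Dose and duration are not stated, and for the resistant cultures the treatment is labelled as control, so whether drug was present in them is not known. Multi-biotics, a further agent in the series' design, were not analysed here. Where values are given in pairs, SNU-6624 comes first and SNU-6625 second.

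Cells split glucose into pyruvate by glycolysis and can send pyruvate on to lactate, which leaves the cell through monocarboxylate carriers. When oxygen is low, the HIF alpha proteins escape hydroxylation and degradation, pair with Arnt and bind DNA at a short core motif, which raises glucose uptake, glycolysis, lactate export and pH control. Liver tumours are known for hypoxic regions and for exchanging liver forms of glycolytic enzymes for general ones.

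HIF dimers read the core ACGTG or GCGTG. The upstream sequences of 6 genes named in the results are shown so that the cores can be seen beside the expression values. Each is the 250 bases before a start site in RefSeq's GRCm38.p6 table, 5′ to 3′ on the gene's strand, with every core on either strand in capitals (read on the other strand, the cores are CACGT and CACGC). The first 4 genes were lower in both lenvatinib libraries than in parental libraries of the same lines, and the last 2 were higher.
Ankrd37, chr8:45999851-46000100, minus strand: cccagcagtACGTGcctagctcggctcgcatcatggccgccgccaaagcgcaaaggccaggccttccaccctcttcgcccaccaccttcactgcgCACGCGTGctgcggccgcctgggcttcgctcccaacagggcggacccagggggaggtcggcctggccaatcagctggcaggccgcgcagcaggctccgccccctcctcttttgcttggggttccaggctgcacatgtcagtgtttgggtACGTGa
Slc16a3, chr11:120948817-120949066, plus strand: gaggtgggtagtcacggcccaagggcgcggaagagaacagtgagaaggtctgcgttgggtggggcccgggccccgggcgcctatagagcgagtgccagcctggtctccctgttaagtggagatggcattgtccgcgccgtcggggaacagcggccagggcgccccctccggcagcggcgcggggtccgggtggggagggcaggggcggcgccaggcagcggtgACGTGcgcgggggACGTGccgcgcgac
Pgk1, chrX:106186850-106187099, plus strand: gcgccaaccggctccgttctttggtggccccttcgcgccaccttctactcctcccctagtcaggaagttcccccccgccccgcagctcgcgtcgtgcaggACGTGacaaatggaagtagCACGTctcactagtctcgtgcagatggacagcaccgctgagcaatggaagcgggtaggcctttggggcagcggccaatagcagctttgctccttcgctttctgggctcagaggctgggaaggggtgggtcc
Ldha, chr7:46845554-46845803, plus strand: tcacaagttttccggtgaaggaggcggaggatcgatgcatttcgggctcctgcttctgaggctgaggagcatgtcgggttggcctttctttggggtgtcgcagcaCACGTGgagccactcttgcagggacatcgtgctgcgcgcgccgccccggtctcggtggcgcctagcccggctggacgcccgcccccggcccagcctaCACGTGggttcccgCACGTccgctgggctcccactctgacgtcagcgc
P4ha1, chr10:59323046-59323295, plus strand: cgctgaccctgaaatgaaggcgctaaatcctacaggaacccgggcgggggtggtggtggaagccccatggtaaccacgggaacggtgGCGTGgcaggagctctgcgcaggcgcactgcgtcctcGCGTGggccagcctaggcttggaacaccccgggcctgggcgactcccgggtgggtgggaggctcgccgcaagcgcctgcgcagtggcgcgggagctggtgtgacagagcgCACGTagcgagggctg
P4ha2, chr11:54100674-54100923, plus strand: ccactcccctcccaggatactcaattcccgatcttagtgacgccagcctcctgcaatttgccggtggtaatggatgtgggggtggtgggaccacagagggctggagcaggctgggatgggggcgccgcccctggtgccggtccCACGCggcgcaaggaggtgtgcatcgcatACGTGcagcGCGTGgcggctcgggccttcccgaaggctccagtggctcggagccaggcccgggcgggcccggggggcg

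Counted on both strands, Ankrd37 held 4 cores, Ldha 5, P4ha1 3, P4ha2 3, Pgk1 2 and Slc16a3 2 in these windows. A palindromic CACGTG, the E-box that other factors also read, counts as 2 cores, and Ldha held 2 such sites. A second Ldha window of the table, which starts at base 46846832, held 1 core. For the Ldha window shown, the bases just after its start site were not found in an Ldha transcript of GENCODE vM21, whereas those of the other 5 were found in a transcript of their gene. The table held 49 windows for 34 of the 36 genes, and Ndrg1 and Bnip3l are missing entries. A core stood in 77.6% of these 49 windows, in 38.6% of all 32851 windows and in 52.4% of the windows of genes tested for expression. Median GC content in the same order was 60.4%, 52.4% and 58.8%. The windows of glycolysis enzymes and of HIF targets outside glycolysis held a core equally often, at 75.0% each. Each window shown held 2 or more cores, as did 44.9% of the 49 windows and 25.2% of those of genes tested. The windows shown are thus not typical of the set. Egln3 and Aldoc, with 1 core per window, and Tpi1, with 0, were also lower after lenvatinib and are not shown. Cores stood in genes that were lower and in genes that were higher after lenvatinib, and a match describes letters only.

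Library totals ran from 49.01 to 61.03 M (megacounts). Levels are counts per megacount of the library (CPM), and 3 counts, the floor used for a value of 0, equal 0.0492 to 0.0612 CPM. Intervals and floors of this kind cover counting error only. The hepatocyte markers Alb, Ttr, Apoa1 and Serpina1c summed to at most 1.75 CPM in any library and 2 of them had 0 counts throughout, so defining liver markers were absent or near 0. The epithelial markers Epcam, Krt19, Krt7 and Krt8 summed to 7612 to 9804 CPM in parental, 2274 to 2775 CPM in lenvatinib and 13604 to 14427 CPM in resistant libraries. Endothelial, fibroblast, leukocyte and red cell marker lists each summed to at most 1.20 CPM. Mki67, a marker of dividing cells, had 211 and 233 CPM in the parental pair, 1.49 and 1.93 CPM after lenvatinib, and 39.0 and 0.279 CPM in the resistant libraries. Ribosomal RNA genes took 0.0942% to 0.1103% of counts in parental libraries and 0.0411% to 0.0533% in the others. Epithelial markers, Mki67 and this share moved with the groups compared, and their part in the results was not tested. In bulk RNA, fewer cells of a type and less RNA per cell cannot be told apart.

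The parental organoids carried a complete chain of transcripts from glucose entry to lactate export, with Aldoa, Pgk1, Pkm and Ldha at the top per kb of exon. The length joins all annotated exons of a gene, so the order depends on which transcripts are annotated. By mean CPM the order was Pkm (3120), Aldoa (2749), Ldha (1956), Gapdh (1693), Gpi1 (1686.5) and Pgk1 (1470). On the scale of CPM per kb of exon, Aldoa, which splits the 6-carbon sugar, had 944 ± 140 (mean ± SD, n = 4 lines). Pgk1, the first ATP-forming step, had 655 ± 216, and Pkm, the last one, had 624 ± 153. Ldha, which makes lactate from pyruvate, had 591 ± 69.7 on this scale. The last 3 overlap within their spread, so their order is not resolved, and Gapdh followed at 410 ± 50.8. The HIF hydroxylase gene Egln3, which marks HIF alpha for destruction and is itself a HIF target, stood sixth of the 36 at 338 ± 131 CPM per kb. It was the highest of the 12 HIF targets outside glycolysis. Among carriers the glucose carrier Slc2a1 led at 90.9 ± 19.0 CPM per kb, against 36.7 ± 7.23 for Slc16a1 and 9.03 ± 3.90 for Slc16a3, the carriers that pass lactate. Of the flux regulators Pdk1, a kinase that shuts off pyruvate dehydrogenase, had 23.6 ± 3.71 CPM per kb. Hif1a had 20.2 ± 1.27 CPM per kb. Of the 36 genes, 31 had at least 10 CPM in all 4 parental lines, and the nerve type enolase Eno2 and the heart type lactate dehydrogenase Ldhb stayed under 3 CPM in all 8 libraries.

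**Figure D1:**
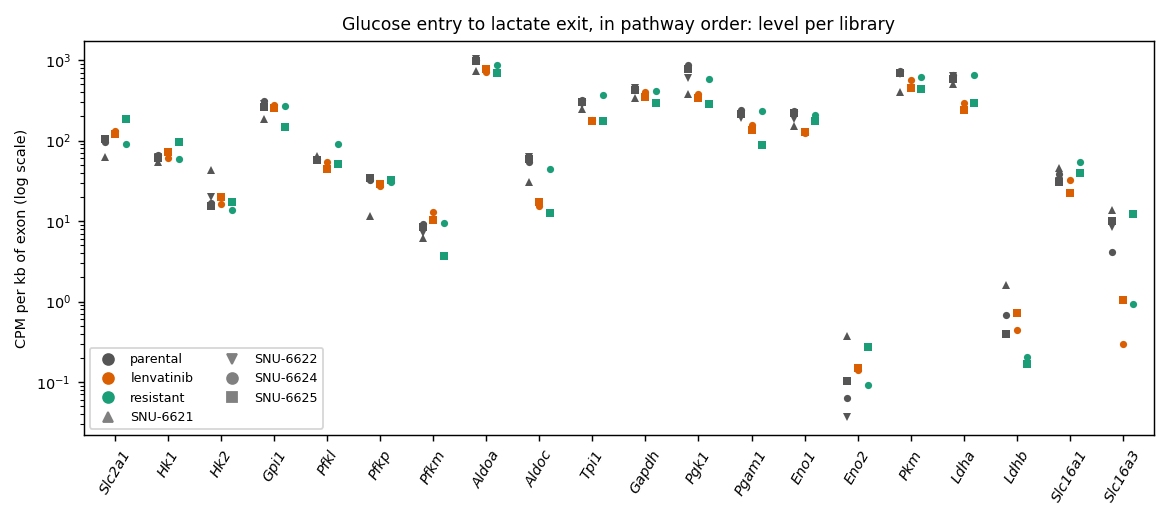
Each point is 1 library's CPM per kb of exon (vertical log axis) for glucose and lactate carriers and glycolysis enzymes, in pathway order from left to right, with colour for the group and shape for the line. Aldoa sits highest, Eno2 and Ldhb lowest, and the 2 lenvatinib points of Ldha, Pgk1, Aldoc and Slc16a3 sit under the parental points of the same lines.

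Among the 4 parental lines 21 of the 36 genes differed by less than 2-fold between the highest and the lowest line, and SNU-6621 was the lowest line for 19 genes and the highest for 12. The 17 glycolysis enzymes together took 1.26% of all counts in SNU-6621, 1.74% in SNU-6622, 1.88% in SNU-6624 and 1.76% in SNU-6625. SNU-6621 was therefore the low line of this sum. The widest spread among genes with over 10 CPM in 3 or more lines was that of the carbonic anhydrases, surface enzymes that turn carbon dioxide into bicarbonate. Car12 had 52.7, 103, 8.11 and 62.5 CPM in the 4 lines in numerical order. Car9 had 64.6, 277, 473 and 143 CPM in the same order. The line with the least Car12 had the most Car9. Hif1a, at 130, 114, 118 and 115 CPM, and Ankrd37, at 59.3, 53.3, 58.3 and 62.5 CPM, were close to level across the 4 lines.

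The lenvatinib libraries were set against the parental libraries of the same lines to ask what the drug did to these genes. Most glycolysis enzymes and the lactate exporter Slc16a3 had lower levels in both lines, as did the HIF targets Ankrd37 and Egln3, while Hif1a and the collagen hydroxylase genes P4ha1 and P4ha2 had higher levels in both. None of the 36 genes passed the test over all genes (edgeR's quasi-likelihood test, adjusted p under 0.05), against 5.78% of the 17038 genes tested (1.70% higher, 4.08% lower). At an unadjusted p under 0.05, 2 members were higher and 9 lower, against 14.6% and 17.2% of all genes tested. DESeq2 called 12 members (1 higher, 11 lower) where it called 21.4% of all genes tested, and limma-voom called 3 where it called 9.96%. The edgeR count was 19 without either of the 2 resistant libraries, where 43.3% or 43.7% of all genes tested were called, and 20 (4 higher, 16 lower) on the 4 libraries of both groups alone, where 48.3% were called, a fit added after seeing the data.

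By sign, 24 of the 36 genes were lower in both lines, 7 were higher in both and 5 differed between lines. Of the 17038 genes tested, 7143 were lower in both, 7052 were higher in both and 2843 differed. In unscaled CPM, both lenvatinib libraries lay below both parental libraries for 17 genes and above both for 7, against 32.4% and 40.5% of all genes tested. Against all 4 parental lines, 9 genes lay below and 5 above, where the shares of all genes were 21.4% and 30.9%. The share of members below the parental pair was larger than among genes at large, and the share below all 4 lines was near it. After the TMM scaling used in the fits, the difference reached 2-fold downwards for 7 members in SNU-6624 and for 7 in SNU-6625, where 13.6% and 13.4% of all genes did. It reached 2-fold upwards for 1 member in each line, Hif1a in SNU-6624 and P4ha2 in SNU-6625, where 5.04% and 5.40% of all genes did. In unscaled CPM Hif1a was also over 2-fold higher in SNU-6625, at 242 against 115 CPM. Across the 36 genes the differences of the 2 lines correlated at a Pearson r of 0.83, beside 0.88 over all genes tested. The lines share no library, and genes are not independent replicates.

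**Figure D2:**
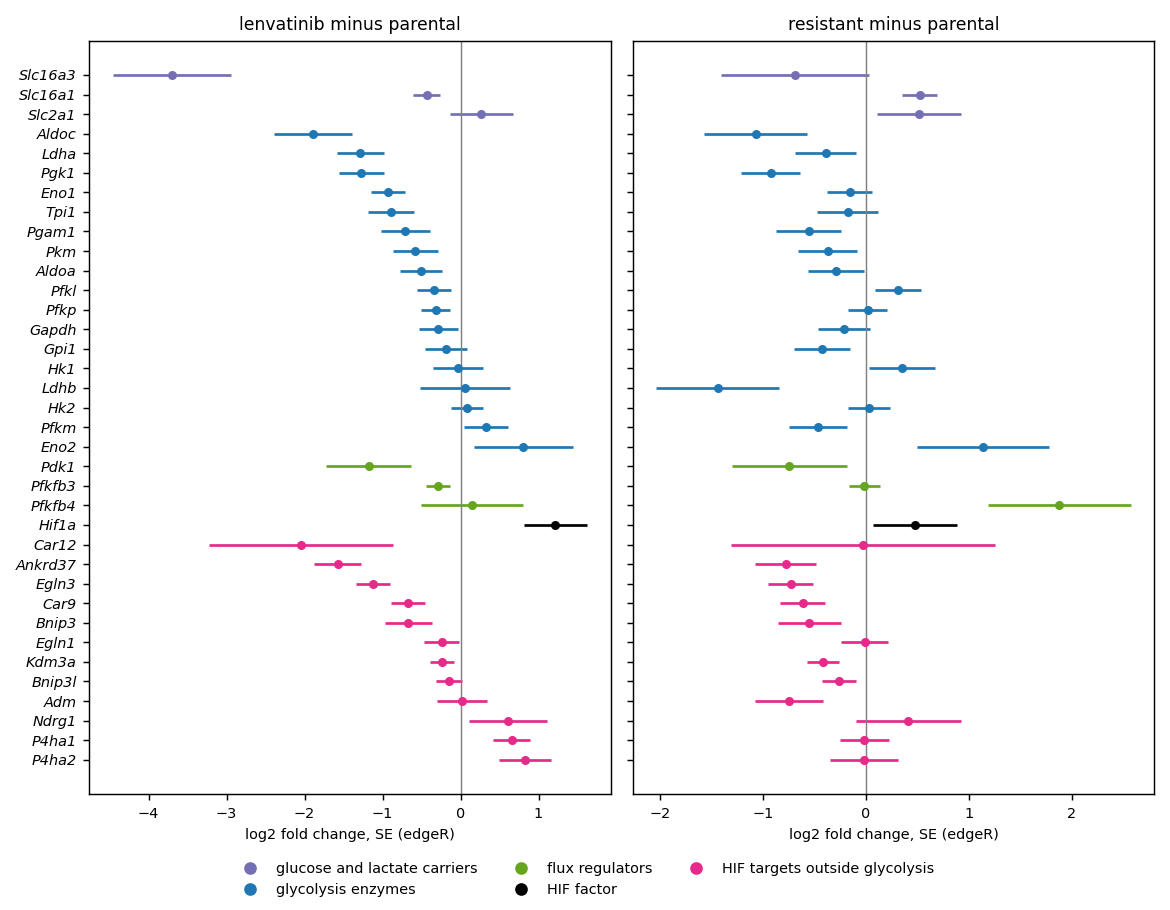
Points are fitted log2 fold changes with their standard errors (horizontal axes) for the 36 genes, coloured by role, for lenvatinib against parental at left and resistant against parental at right, over 2 lines. At left 25 of 36 points lie under 0 with Slc16a3 at -3.70 as the lowest, and at right 26 lie under 0. Both panels share the parental libraries.

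Among the carriers, the lactate exporter Slc16a3 differed most. It had 22.1 and 52.7 CPM in the parental pair and 1.57 and 5.52 CPM after lenvatinib. The other parental lines had 72.3 and 44.9 CPM, so the lenvatinib libraries lay below all 4. The log2 fold change was -3.70 (SE 0.76, adjusted p = 0.0640 in edgeR's test), and it was -2.74 without parental SNU-6624 and -4.36 without parental SNU-6625. Slc16a1, which carries lactate both ways, had 171 and 134 CPM against 142 and 99.2 CPM, and these ranges overlap. The glucose carrier Slc2a1 had 336 and 363 CPM against 458 and 420 CPM, above all 4 parental lines, with a log2 fold change of 0.27 (SE 0.40, adjusted p = 0.677). The sums over the 3 carriers stayed at 113.6% and 95.4% of parental, since Slc2a1 outweighs the other 2.

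The glycolysis enzymes summed to 18828 and 17563 CPM in the parental pair and to 13041 and 12136 CPM after lenvatinib, 69.3% and 69.1% of parental. Parental SNU-6621, at 12609 CPM, lay between the lenvatinib libraries, so this sum does not separate them from all parental lines. Of the 17 enzymes, 12 were lower in both lines, 2 higher in both and 3 differed by line. The median log2 fold change was -0.34, beside -0.01 over all genes tested.

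The 5 enzymes with the most negative log2 fold changes were Aldoc, Ldha, Pgk1, Eno1 and Tpi1. Ldha had 2161 and 1902 CPM in the parental pair and 977 and 797 CPM after lenvatinib. Its lenvatinib libraries lay below all 4 parental lines, whose lowest was 1654 CPM, and its log2 fold change was -1.29 (SE 0.30, adjusted p = 0.0757). Pgk1 had 1956 and 1735 CPM against 862 and 757 CPM, a log2 fold change of -1.27 (SE 0.29, adjusted p = 0.0717). Parental SNU-6621 had 853 CPM of Pgk1, so the lenvatinib values were separated from those of the same lines but not from all 4. The brain type aldolase Aldoc had 175 and 193 CPM against 49.5 and 55.5 CPM, with 99.2 CPM in the lowest parental line and a log2 fold change of -1.89 (SE 0.50, adjusted p = 0.0905). Eno1, the main enolase, had 1247 and 1190 CPM against 664 and 694 CPM, below all 4 parental lines, and its log2 fold change was -0.93 (SE 0.22, adjusted p = 0.0772). Its near copy Eno1b held 3.79% to 4.30% of the pair's counts in every library and may share its reads, so the split between the 2 is uncertain. Tpi1, which interconverts the 3-carbon sugars, had 884 and 827 CPM against 492 and 482 CPM, again below all 4 lines, with a log2 fold change of -0.89 (SE 0.29, adjusted p = 0.127).

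The other 12 enzymes had smaller differences. The hexokinases Hk1 and Hk2, which trap glucose, had log2 fold changes of -0.03 (SE 0.32) and 0.08 (SE 0.20), and their libraries overlapped those of the parental lines. Gpi1, the next step, had 2023 and 1691 CPM against 1785 and 1639 CPM, also overlapping. The phosphofructokinases of the committed step split by isoform. Pfkl, the liver form, had 396 and 383 CPM against 357 and 298 CPM, and Pfkm, the muscle form, had 30.5 and 27.8 CPM against 43.4 and 34.8 CPM. Pfkl was below and Pfkm above all 4 parental lines, though neither passed the test (adjusted p = 0.347 and 0.470). Pkm, the highest enzyme by CPM, had 3651 and 3482 CPM against 2809 and 2265 CPM, with 1984 CPM in parental SNU-6621. For Aldoa (log2 fold change -0.51, SE 0.27), Pfkp (-0.32, SE 0.19) and Gapdh (-0.29, SE 0.25) the lenvatinib libraries likewise lay below the parental pair but not below all 4 lines. Pgam1, which moves the phosphate before the enolase step, lay below all 4 (-0.71, SE 0.31). Eno2 (0.81, SE 0.64) and Ldhb (0.05, SE 0.58) rest on 10 to 93 and 16 to 131 counts per library.

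Of the flux regulators, Pdk1 had 185 and 219 CPM in the parental pair and 94.0 and 97.8 CPM after lenvatinib, below all 4 parental lines, with a log2 fold change of -1.18 (SE 0.54, adjusted p = 0.217). Pfkfb3 and Pfkfb4 make and break down the sugar phosphate that activates phosphofructokinase. Their log2 fold changes were -0.29 (SE 0.15) and 0.15 (SE 0.65), and neither was separated from all 4 parental lines.

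Hif1a transcript differed in the opposite sense to most of the listed targets. It had 118 and 115 CPM in the parental pair and 324 and 242 CPM after lenvatinib, above all 4 parental lines. The log2 fold change was 1.22 (SE 0.41, adjusted p = 0.130). HIF-1 alpha activity is set largely by protein stability, which was not measured here.

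**Figure D3:**
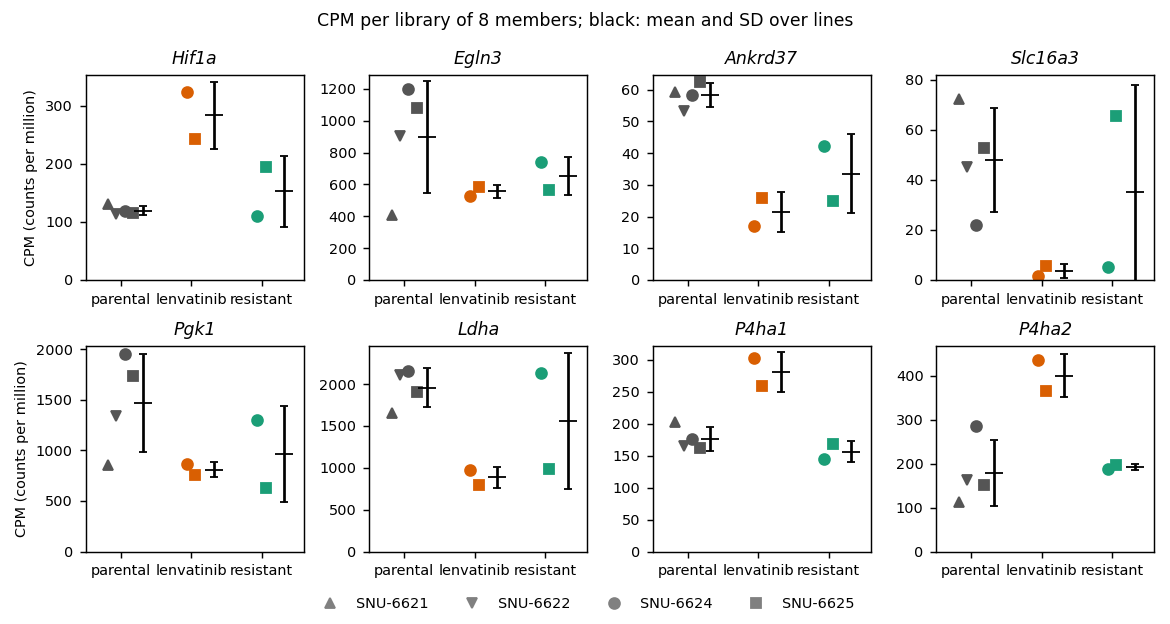
Points are CPM per library (linear vertical axes from 0) in parental, lenvatinib and resistant groups, with shape for the line, and black bars give mean and SD over lines (n = 4, 2 and 2, cut off at 0). Hif1a, P4ha1 and P4ha2 have both lenvatinib points above all parental points, and Ankrd37, Slc16a3 and Ldha have both below, whereas resistant points of Slc16a3, Pgk1 and Ldha lie far apart.

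The HIF targets outside glycolysis split 2 ways after lenvatinib. Of the 12, 8 were lower in both lines, 3 were higher in both and Adm, a vessel-dilating peptide gene under 12 CPM in every library, differed by line. Their sum was 96.2% and 90.3% of parental, and their median log2 fold change was -0.24. Ankrd37, an ankyrin repeat gene induced by HIF-1, had 58.3 and 62.5 CPM in the parental pair and 17.1 and 26.0 CPM after lenvatinib. The lenvatinib libraries lay below all 4 parental lines, and the log2 fold change of -1.58 (SE 0.30) had the smallest adjusted p of the set, 0.0576. Egln3 had 1202 and 1081 CPM against 526 and 585 CPM, a log2 fold change of -1.12 (SE 0.22, adjusted p = 0.0607), with parental SNU-6621 lower still at 407 CPM. Car9 had 473 and 143 CPM against 271 and 108 CPM, lower within each line by 0.86 and 0.51 on the log2 scale.

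Car12 had 8.11 and 62.5 CPM in the parental pair and 7.16 and 9.08 CPM after lenvatinib. Its log2 fold change of -2.05 (SE 1.18, adjusted p = 0.298) came from SNU-6625, and it was 0.38 without parental SNU-6625. The mitophagy receptor genes Bnip3 and Bnip3l had log2 fold changes of -0.67 (SE 0.30) and -0.15 (SE 0.17). Egln1, the main HIF hydroxylase, and Kdm3a, a histone demethylase, both had -0.24 (SE 0.23 and 0.15).

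The 3 targets that were higher in both lines were both collagen hydroxylase subunits and Ndrg1. P4ha1 had 177 and 161 CPM in the parental pair and 303 and 259 CPM after lenvatinib, a log2 fold change of 0.66 (SE 0.24, adjusted p = 0.148). P4ha2 had 286 and 151 CPM against 435 and 365 CPM, a log2 fold change of 0.83 (SE 0.33, adjusted p = 0.173). For both genes the lenvatinib libraries lay above all 4 parental lines. Ndrg1, a stress and differentiation gene, had 742 and 389 CPM against 1322 and 535 CPM, and the 2 ranges overlap. Its log2 fold change was 0.60 (SE 0.50), and it was -0.051 without lenvatinib SNU-6624. Ankrd37, Egln3, P4ha1 and P4ha2 are all listed as HIF targets, and in both lines the first 2 were lower and the last 2 higher.

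The resistant cultures were set against the same parental libraries to ask how they differ from them. The comparison shares its parental libraries with the one before. The 2 resistant lines differed from parental in different ways. Of the 17 glycolysis enzymes, 13 had lower TMM-scaled levels than parental in SNU-6624 and 12 in SNU-6625. Their CPM sum, though, came to 89.9% of parental in the first line and to 64.2% in the second. After the TMM scaling used in the fits, Slc2a1, Pfkfb4 and Ndrg1 were over 2-fold higher in SNU-6625 and under 2-fold different in SNU-6624. In unscaled CPM, Slc2a1 (649 against 363) and Ndrg1 (693 against 389) were under 2-fold higher in SNU-6625. None of the members was called, and neither was any of the 17038 genes (0.0%, higher and lower, in edgeR's test). At an unadjusted p under 0.05, 2 members were higher (Slc16a1, Pfkfb4) and 5 lower (Pgk1, Egln3, Ankrd37, Car9, Kdm3a), against 8.10% and 7.84% of all genes. DESeq2 called 3 members and 1104 genes in all (6.48%), and limma-voom none of either. Without resistant SNU-6624 the count was 19, where 32.3% of all genes tested were called, and without resistant SNU-6625 it was 1 (3.26%). With 1 resistant library left, that library is assumed to vary like the other groups.

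By sign, 17 members were lower in both lines, 4 were higher in both and 15 differed between lines. Of the 17038 genes tested, 5451 were lower in both, 5164 were higher in both and 6423 differed. The share of members that differed between lines was near that of all genes. In unscaled CPM, both resistant libraries lay below both parental ones for 13 members and above for 2, against 27.4% and 19.4% of all genes. This count depends on the scale. Pfkp counts as below, at 414 and 430 against 433 and 455 CPM, but its TMM-scaled log2 difference in SNU-6625 was 0.12. Against all 4 parental lines, 2 lay below and 1 above, where the shares of all genes were 15.1% and 10.3%. A 2-fold difference after TMM scaling was reached in SNU-6624 by 1 member upwards, Car12, and by 1 downwards, Slc16a3, where 2.58% and 4.1% of all genes did. In SNU-6625 it was reached by 3 members upwards and 7 downwards, where 9.37% and 12% of all genes did. The differences of the 2 lines across the 36 genes had a Pearson r of -0.14 and a Spearman rho of 0.065, beside 0.43 and 0.39 over all genes tested.

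**Figure D4:**
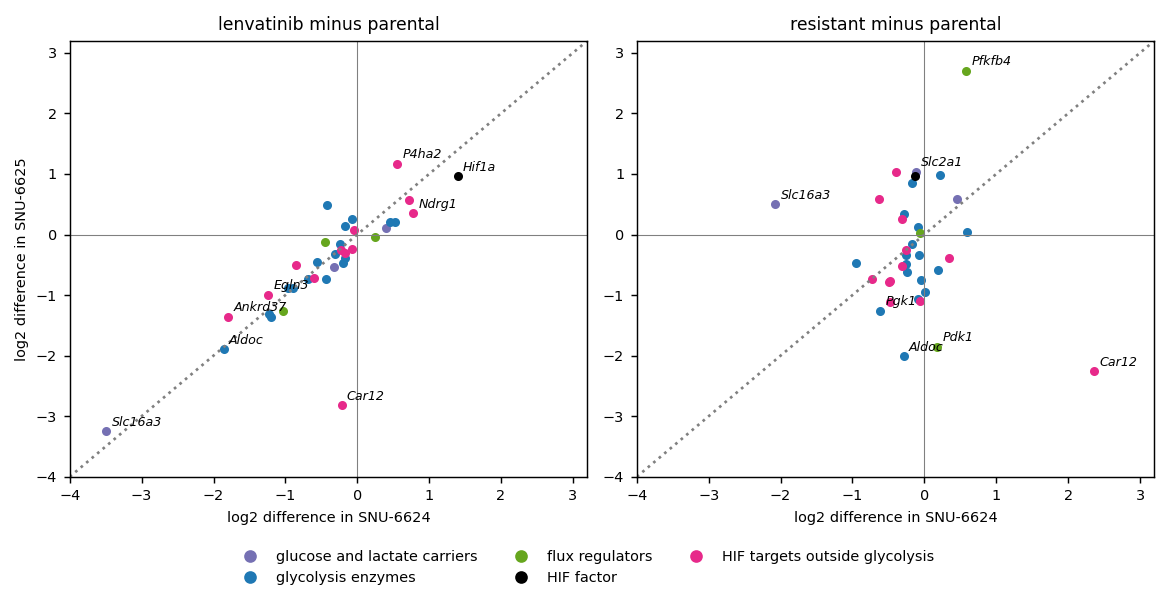
Each point is 1 of the 36 genes, at its log2 difference from parental in SNU-6624 (horizontal) and SNU-6625 (vertical), coloured by role, with a dotted line where both are equal. After lenvatinib (left) most genes lie near the dotted line and Car12 (-0.22 and -2.82) is farthest from it, and in the resistant cultures (right) they spread along the SNU-6625 axis, with Car12 at 2.36 and -2.26.

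The summed glycolysis enzymes were 16918 CPM in resistant SNU-6624, against 18828 CPM in its parental culture, and 11277 CPM in resistant SNU-6625, against 17563 CPM. Their median log2 fold change was -0.29, beside -0.01 over all genes. Ldha had 2161 and 1902 CPM in the parental pair and 2133 and 983 CPM in the resistant cultures, log2 differences from parental of -0.04 and -0.75. Pgk1 had 1302 and 631 CPM in the resistant cultures, below 1956 and 1735 CPM in parental ones, with a log2 fold change of -0.93 (SE 0.29, adjusted p = 0.274). Aldoc had 145 CPM in resistant SNU-6624 and 41.2 CPM in resistant SNU-6625, against 175 and 193 CPM, and its log2 fold change of -1.07 moved to -2.02 (resistant SNU-6624 left out) or -0.30 (resistant SNU-6625 left out). Pfkl was higher in SNU-6624, with 606 against 396 CPM, and had 341 against 383 CPM in SNU-6625. Over the 17 enzymes the fitted changes ran from -1.44 for Ldhb to 1.14 for Eno2, both at low counts, and the smallest adjusted p was that of Pgk1.

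For the carriers Slc16a3 and Slc2a1 the difference from parental had opposite signs in the 2 lines. Slc16a3 had 22.1 and 52.7 CPM in the parental pair and 4.97 and 65.3 CPM in the resistant cultures. Its log2 fold change of -0.69 (SE 0.72, adjusted p = 0.636) turned to 0.40 without resistant SNU-6624. Slc2a1 had 315 CPM in resistant SNU-6624 and 649 CPM in resistant SNU-6625, against 336 and 363 CPM. Slc16a1 was the carrier that was higher in both lines, with 238 and 176 CPM against 171 and 134 CPM, a log2 fold change of 0.52 (SE 0.17, adjusted p = 0.284). Parental SNU-6621, at 204 CPM, lay inside that range.

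Pfkfb4 had 7.67 and 8.04 CPM in the parental pair and 11.95 and 48.1 CPM in the resistant cultures, above all 4 parental lines, with a log2 fold change of 1.87 (SE 0.69, adjusted p = 0.308). Leaving out resistant SNU-6624 gave 2.85, and leaving out resistant SNU-6625 gave 0.53. Pdk1 had 213 CPM in resistant SNU-6624 and 52.6 CPM in resistant SNU-6625, against 185 and 219 CPM. These 2 regulators thus stood at opposite ends in resistant SNU-6625. Hif1a had 109 and 195 CPM in the resistant cultures, on either side of the parental 118 and 115 CPM.

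Of the 12 HIF targets outside glycolysis, 7 were lower in both resistant lines, none was higher in both and 5 differed by line. Their sums were 74.9% and 79.0% of parental, and their median log2 fold change was -0.34. Egln3 had 738 and 567 CPM against 1202 and 1081 CPM, with a log2 fold change of -0.73 (SE 0.22, adjusted p = 0.270). Ankrd37 had 42.3 and 24.8 CPM, below all 4 parental lines, and a log2 fold change of -0.78 (SE 0.29, adjusted p = 0.312). Car9 had 345 and 73.4 CPM against 473 and 143 CPM, and Kdm3a had 138 and 91.0 CPM against 169 and 150 CPM. These 4 genes were lower in both lines. Car12 differed in opposite directions, with 44.5 CPM in resistant against 8.11 CPM in parental SNU-6624, and 11.03 against 62.5 CPM in SNU-6625. P4ha1, at 144 and 168 CPM, and P4ha2, at 188 and 197 CPM, overlapped the parental range. The other targets had log2 fold changes of -0.55 (Bnip3, SE 0.30), -0.26 (Bnip3l, SE 0.17), -0.75 (Adm, SE 0.33), -0.01 (Egln1, SE 0.23) and 0.41 (Ndrg1, SE 0.51).

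Set against the lenvatinib libraries directly, the resistant libraries had more lactate carrier transcript and more of several enzymes. None of the 36 members was called, against 6.23% of genes tested (4.14% higher, 2.08% lower). At an unadjusted p under 0.05, 6 members were higher and 2 lower, where 16.4% and 14.0% of all genes were. DESeq2 called 6 members where it called 20.8% of all genes tested, and limma-voom 1 where it called 9.31%. The share of members called was under that of all genes with both tools. In unscaled CPM, both resistant libraries lay above both lenvatinib libraries for 6 members and below for 5, against 22.3% and 36.4% of all genes. These shares leave out the TMM factors, which in SNU-6625 were 0.883 for the resistant and 1.09 for the lenvatinib library. Fits on library totals alone moved the median log2 fold change of all genes from 0.02 to -0.14. After TMM scaling, a 2-fold difference upwards was reached by 7 members in SNU-6624 and 3 in SNU-6625, where 13.4% and 13.3% of all genes did. Downwards it was reached by 4 and 1, where 6.29% and 8.47% did. Without resistant SNU-6624 or SNU-6625 the count of called members was 10 or 18, with 34.9% or 33.0% of all genes called.

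Slc16a1 had 142 and 99.2 CPM after lenvatinib and 238 and 176 CPM in the resistant cultures, without overlap, and its log2 fold change was 0.96 (SE 0.17, adjusted p = 0.0523). Slc16a3 had 1.57 and 5.52 CPM against 4.97 and 65.3 CPM, which overlap, with a log2 fold change of 3.01 (SE 0.76, adjusted p = 0.0836), and leaving out the resistant library of either line moved it to 4.002 (SNU-6624 left out) or 1.51 (SNU-6625 left out). Both lactate carriers were thus higher in each resistant line than in its lenvatinib library. Eno1 had 664 and 694 CPM against 1130.0 and 932 CPM (log2 fold change 0.77, SE 0.22, adjusted p = 0.103), and Ldha 977 and 797 CPM against 2133 and 983 CPM (0.90, SE 0.30, adjusted p = 0.134). Pfkm was lower, with 43.4 and 34.8 CPM against 31.2 and 12.3 CPM. Hif1a had 324 CPM after lenvatinib and 109 CPM in resistant SNU-6624, and 242 and 195 CPM in SNU-6625, and its log2 fold change of -0.74 moved to -0.10 (resistant SNU-6624 left out) or -1.44 (resistant SNU-6625 left out). The median log2 fold change was 0.33 for glycolysis enzymes and -0.03 for HIF targets outside glycolysis, beside 0.02 over all genes tested.

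Glycolysis enzymes set beside the HIF targets outside glycolysis differed in their sums. In CPM after lenvatinib, the summed enzymes were near 69% of parental in both lines, while the other targets summed to over 90%. In the resistant cultures the CPM sums of other targets were 74.9% and 79.0% of parental, and those of enzymes 89.9% and 64.2%. These sums leave out the TMM factors used in the fits. The factors were 0.990 and 1.01 for the parental pair, 1.03 and 1.09 for lenvatinib and 1.01 and 0.883 for resistant libraries. The shares in SNU-6625 therefore depend on the scale. The sums are dominated by their highest genes. Of the other targets' 3505 and 2441 CPM after lenvatinib, Ndrg1 alone gave 1322 and 535 CPM. In the parental pair it gave 742 and 389 CPM of 3645 and 2704 CPM. The gap between the lists' sums after lenvatinib therefore rests in large part on this gene. By median log2 fold change after lenvatinib, enzymes had -0.34 and other targets -0.24. The difference between the 2 lists was not tested.

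Other genes of the pathway, from lists of HIF machinery, further HIF targets and neighbouring sugar metabolism, were tested in the same fits. None of their 74 tested genes was called between resistant and parental cultures in edgeR's test, where 0.0% of all genes were. DESeq2 called 6 of the 74 there (6.48% of all genes), and limma-voom none of either. After lenvatinib edgeR's test called 6 of the 74 (1 higher, 5 lower), against 5.78% of all genes tested. DESeq2 called 23 and limma-voom 12, against 21.4% and 9.96%. Between resistant and lenvatinib libraries edgeR's test called 4 of the 74 (1 higher, 3 lower), against 6.23% of all genes tested. There DESeq2 called 17 (10 higher, 7 lower) and limma-voom 4 (1 higher, 3 lower), against 20.8% and 9.31%. Of 12 tested genes of the HIF machinery, 1 fell after lenvatinib and none rose, with 4 higher and 2 lower at an unadjusted p under 0.05. DESeq2 called 2 higher and 2 lower, and limma-voom 1 higher and 2 lower. Hif3a, a HIF alpha form that can act as an inhibitor, had 5.36 and 10.6 CPM in the parental pair and 0.141 and 0.165 CPM after lenvatinib (log2 fold change -5.72, SE 0.55, adjusted p = 0.0338 in edgeR's test). These lenvatinib values lie near the floor of 0.0530 and 0.0552 CPM, so the size of the fall is uncertain. Within the lines, with 0.5 CPM added, the log2 differences were -3.21 and -4.07. Epas1, which encodes HIF-2 alpha, had 178 and 202 CPM against 89.2 and 107 CPM and did not pass (log2 fold change -1.03, SE 0.19, adjusted p = 0.0557). Of the HIF alpha genes, Hif1a thus had a higher level and Epas1 and Hif3a lower ones in both lines, and only Hif3a passed. Of 25 further HIF targets tested, 1 fell and none rose, where 4.08% and 1.70% of all genes tested did. At an unadjusted p under 0.05, 2 were higher and 4 lower, against 14.6% and 17.2% of all genes tested. DESeq2 called 1 higher and 6 lower, and limma-voom 1 higher and 2 lower. The 1 that fell in edgeR's test was Ak4, a mitochondrial adenylate kinase, with 144 and 72.7 CPM against 52.4 and 33.1 CPM (log2 fold change -1.38, SE 0.15, adjusted p = 0.0370).

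Vegfa, the vessel growth factor and a classical HIF target, had 557 and 527 CPM in the parental pair, 806 and 744 CPM after lenvatinib and 344 and 253 CPM in the resistant cultures. It was lower in resistant than in lenvatinib libraries (log2 fold change -1.22, SE 0.20, adjusted p = 0.0450). It was the 1 of 25 further HIF targets that passed in that comparison, where 6.23% of all genes tested did. Against parental it was above all 4 lines after lenvatinib and below all 4 in resistant cultures, without passing either test (adjusted p = 0.205 and 0.248).

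Of 8 pentose phosphate genes, Taldo1 (transaldolase) rose after lenvatinib, from 292 and 257 CPM to 802 and 781 CPM (log2 fold change 1.45, SE 0.23, adjusted p = 0.0460). Pgls, an enzyme of the oxidative branch, fell from 70.1 and 81.6 CPM to 39.7 and 45.1 CPM. Its log2 fold change was -0.92 (SE 0.15, adjusted p = 0.0476 in edgeR's test). That test called 1.70% of all genes higher and 4.08% lower after lenvatinib. Of the 8, DESeq2 called 2 higher and 2 lower, and limma-voom 1 each way, against 21.4% and 9.96% of all genes. Of 9 liver isoforms and gluconeogenesis genes tested, Pcx, which makes oxaloacetate from pyruvate, fell from 388 and 418 CPM to 163 and 171 CPM. Its log2 fold change was -1.36 (SE 0.22, adjusted p = 0.0473 in edgeR's test). Of these 9, DESeq2 called 2 higher and 3 lower after lenvatinib, and limma-voom 1 higher and 2 lower. In the same list Pck2 and G6pc3 were lower in resistant than in lenvatinib libraries (log2 fold changes -1.73 and -1.06, both adjusted p = 0.0380 in edgeR's test). That test called 2.08% of all genes lower there. From this list DESeq2 called 3 higher and 2 lower there, and limma-voom 2 lower. Of 9 other glycolytic isoforms, Eno1b alone passed edgeR's test, lower after lenvatinib and higher in resistant than in lenvatinib libraries. Its reads may come from Eno1. From this list DESeq2 called 1 lower after lenvatinib, and 1 higher and 1 lower in resistant against lenvatinib libraries. None of the 11 genes that lead pyruvate to acetyl-CoA passed after lenvatinib, where 1 was higher and 1 lower at an unadjusted p under 0.05, DESeq2 called 1 each way and limma-voom none.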

How the data were processed

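The authors deposited whole-number read counts per gene, 1 table per library, per the file headers. The submitters' processing notes name HISAT2 2.1.0, StringTie 2.1.3b, Bowtie2 2.3.4.1, Trimmomatic 0.38 and FastQC 0.11.7, and genome mm10. A stranded poly(A) kit was used per the labels' protocols. How reads were counted, and with which strand setting, is not given in the sources used here. Overlapping genes therefore cannot be told apart with certainty.

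CPM is the count over the library total. Counts of the 6 libraries of SNU-6624 and SNU-6625 were fitted in edgeR 4.0.16 (R 4.3.3) with terms for group and line, TMM scaling and filterByExpr, which kept 17038 genes and all 36 members. Its quasi-likelihood test was the main one, with Benjamini-Hochberg adjustment over all genes tested. SE is the log2 fold change over the square root of F. The biological coefficient of variation was 0.336, with 2 residual and 2.53 prior degrees of freedom. Line pairs the libraries by the labels: deviations from group means correlated at 0.504 (parental and lenvatinib), 0.288 (parental and resistant) and 0.290 (lenvatinib and resistant). Nothing says that libraries came from separate animals, so p-values reflect only how far these libraries differ, which may be technical. Differences within a line are log2 of TMM-scaled CPM + 0.5. Whether libraries lay above, below or overlapped others was read on CPM without TMM scaling. Exon lengths are the union of all annotated exons of a gene in GENCODE vM21. The steps were tested on simulated data. DESeq2 1.42.0, limma-voom (limma 3.58.1), other scalings and filters, all 8 libraries and each library left out were tried.

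Values are given for the 5 members with the smallest p per comparison, the 2 largest rises and falls per line with at least 5 CPM, the highest member per role, and others by range or where a role is described. The members and lists were chosen with earlier results of these data known.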

Additional observations from a re-analysis of the deposited data

Results flagged for a closer look

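In 3 of the 36 genes, parental SNU-6621 stood far from the other 3 parental lines. Hk2 had 258.4 CPM there, against 92.3 to 120 CPM in the others. Pfkp had 153.8 CPM, against 433 to 455 CPM, and Gapdh had 1381 CPM, against 1769 to 1836 CPM. The gap to the nearest line exceeded Dixon's 95% critical value for 4 samples in each. Chance alone flags about 1 in 20 groups tested this way, and 36 groups were tested. SNU-6621 enters no fitted comparison of the main test.

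Car12 differed in opposite directions in the 2 resistant cultures, by a log2 difference from parental of 2.363 in line SNU-6624 against -2.259 in line SNU-6625. With 1 library per line and group, this difference between lines was not tested.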

How the results depend on the processing

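The count of called members depended on the test and on the libraries in the fit. For lenvatinib against parental it was 2 with no replicate block (no line term; 6.18% of all genes called), 12 with DESeq2 (21.4%), 3 with limma-voom (9.96%), 2 with a filter of at least 1 CPM in 2 libraries (9.89%), 20 on 4 libraries (48.3%) and 0 to 19 when each library was left out. For resistant against parental it was 3 with DESeq2 (6.48%) and 0 to 19 with a library left out, and the line term changed no count there. For resistant against lenvatinib it was 6 with DESeq2 (20.8%), 1 with limma-voom (9.31%), library totals (7.39%), the 1 CPM filter (11.1%) or genes above 1% of counts left out (6.62%), and 0 to 18 with a library left out. Each left-out fit that reached 10 or more lacked a resistant library, and the cause was not tested.

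The median log2 fold change of glycolysis enzymes after lenvatinib (-0.34) was -0.37 with DESeq2 and with RLE scaling, -0.26 on library totals, -0.45 with the 1 CPM filter and -0.52 to -0.33 with a library left out. That of HIF targets outside glycolysis (-0.24) was -0.16 on library totals and -0.37 to -0.062 with a library left out. In resistant against parental, leaving out libraries gave -0.42 to -0.14 for the enzymes and -0.66 to -0.32 for the other targets. In resistant against lenvatinib the enzymes' median (0.33) was 0.15 on library totals and 0.17 to 0.31 with a library left out, and that of the other targets ran from -0.18 to 0.11. Library totals moved the median of all genes from 0.02 to -0.14 there, and the share of higher calls from 66.5% to 47.3%. For lenvatinib against parental that share moved from 29.3% to 43.4%.

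Signs turned in 16 cases. In resistant against parental, Car12 (-0.03) ran from -1.82 to 2.003 with a library left out, positive without either library of lenvatinib (0.065 each), parental SNU-6625 (2.003) or resistant SNU-6625 (1.64), and was 0.058 on 4 libraries. Slc16a3 (-0.69) was 0.086 with no replicate block and ran from -2.08 to 0.40 with a library left out, positive without parental SNU-6624 (0.080) or resistant SNU-6624 (0.40). Slc2a1 (0.52) ran from -0.19 (without resistant SNU-6625) to 1.10. In lenvatinib against parental, Ndrg1 (0.60) ran from -0.051 (without lenvatinib SNU-6624) to 1.07 and Car12 (-2.05) from -3.33 to 0.38 (without parental SNU-6625). In resistant against lenvatinib, Car12 ran from -0.19 to 3.25, Aldoc from -0.12 to 1.59 and Pdk1 from -0.64 to 1.26, each below 0 without resistant SNU-6624. Ndrg1 ran from -1.08 to 0.58 there, above 0 without resistant SNU-6624 (0.58) or lenvatinib SNU-6624 (0.37).

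With 2 libraries a group and 2 residual degrees of freedom, a missed threshold does not show that levels were alike.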
